A study of Mus musculus with 11 samples.

Results

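Transcripts of 7 genes of cholesterol synthesis and its control were followed in mouse liver: Hmgcs1, Idi1, Fdps, Sqle, Lss, Insig1 and Srebf2, out of 31508 gene symbols on the array. The genes were chosen with earlier results of these data known. Their probes were then taken by name, as every probe whose gene symbol in the deposited bead-array table was one of these 7. This gave 14 probes of the 45281 on the array. Hmgcs1, Idi1 and Srebf2 had 1 probe each, Fdps and Lss 2, Sqle 3 and Insig1 4. Where a gene had several probes they are numbered by their mean signal, brightest first. The files used here do not hold the probes' sequences, so which part of a transcript each probe reads was not analysed here.

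Liver RNA came from 11 female C57Bl/6 mice, with 1 Illumina mouse BeadChip array for each mouse. In the first group 4 mice were killed 6 h after 0.5 mg 5'-adenosine monophosphate (5'-AMP) per g body weight (AIHM in the labels), 4 mice were killed 12 h after the same dose (RF, with Rev Flip in the titles), and 3 control mice received vehicle. The strain carries no stated mutation, and neither the ages nor what RF or Rev Flip means are stated. No time of death is given for the control mice, so time since injection, time of day and feeding cannot be told apart from 5'-AMP itself.

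Cells make cholesterol from acetyl-CoA through the mevalonate pathway, and the liver is a main site of this synthesis. SREBP2, the protein made from Srebf2, is held in the endoplasmic reticulum when sterols are plentiful, by Scap bound to Insig proteins such as Insig1. When sterols fall, SREBP2 is carried to the Golgi and cut, and its released part enters the nucleus and switches on the genes of the pathway. Because of this shared control, the transcripts of the pathway are known to rise and fall together, for example with feeding.

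Promoter sequence shows how the members differ in the letters that SREBP2 and its partner factors are known to read. RefSeq windows of 300 bases around the start site (GRCm38.p6) were held for 5 of the 7 members (Hmgcs1, Idi1, Lss, Insig1 and Srebf2). The sterol regulatory element was searched as TCACNCCAC, the NF-Y motif as CCAAT, the Sp1 motif as GGGCGG and the E-box as CACGTG, each on both strands. No match overlapped another in these windows. The 250 upstream bases are shown for the only member window with a TCACNCCAC match and for the only one with an E-box. Hmgcs1 lies at chr13:119690101-119690350 and Insig1 at chr5:28071162-28071411, both on the plus strand. Capitals mark TCACNCCAC and CCAAT in Hmgcs1, and CACGTG and CCAAT in Insig1, with CCAAT read here as ATTGG because it lies on the minus strand.
Hmgcs1: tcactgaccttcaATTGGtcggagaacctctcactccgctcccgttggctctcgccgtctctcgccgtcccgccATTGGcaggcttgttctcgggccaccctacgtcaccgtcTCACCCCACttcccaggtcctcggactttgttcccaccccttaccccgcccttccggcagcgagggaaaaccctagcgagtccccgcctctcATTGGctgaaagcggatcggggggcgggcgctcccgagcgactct
Insig1: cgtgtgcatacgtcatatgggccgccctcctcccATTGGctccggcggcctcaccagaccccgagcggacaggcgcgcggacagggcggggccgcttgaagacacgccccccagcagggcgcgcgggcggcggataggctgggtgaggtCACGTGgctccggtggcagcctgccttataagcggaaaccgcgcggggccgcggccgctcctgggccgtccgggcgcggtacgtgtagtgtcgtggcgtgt
The TCACNCCAC match of Hmgcs1 began at position -137 from the start site, and 1.24% of all 32851 windows held that motif. The E-box of Insig1 began at position -101, and 7.15% of windows held an E-box. CCAAT was present in 5 of 5 member windows against 37.4% of all windows, and GGGCGG in 5 of 5 against 35.7%. These are matches of letters only, and a window without a match says only that these letters are not in it.

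The arrays and the tissue were examined first. The number of probes detected (detection p under 0.05, the chance that a probe without a target is as bright) was 15403 to 15903 on the 6 h arrays, 15131 to 15589 on the 12 h arrays and 15174 to 15663 on the control arrays. Whole arrays differed in brightness before normalisation. The median signal of the probes tested was 241 to 304 at 6 h, 203 to 247 at 12 h and 197 to 263 in controls. The share of all probes whose groups separate in unnormalised signal was not counted. Of 8 hepatocyte markers 7 were detected on enough arrays to be tested (all but Tat), and 0 of the 7 passed the test in any comparison, with summed normalised signals of 128000 to 168200 at 6 h, 155000 to 167000 at 12 h and 145700 to 161000 in controls. The summed signal of the 4 testable erythroid markers was 56100 to 70400 at 6 h and 50520 to 61350 at 12 h, against 26340 to 51160 in controls. None of these 4 passed. Of 5 testable neutrophil markers 1 passed, S100a8, where 0.807% of all probes passed at 6 h and 2.69% at 12 h. S100a8 was higher than in controls by 2.01 log2 units at 6 h and by 1.70 at 12 h (limma adjusted p = 0.0453 and 0.0492). The neutrophil list's median was 0.00 at 6 h and -0.19 at 12 h, and its summed signal was 724.6 to 1131 at 6 h and 729 to 1612 at 12 h, against 540.2 to 2592 in controls. All 6 testable Kupffer cell and macrophage markers were below controls in the mean at 6 h (median -0.39) and at 12 h (median -0.63), but 0 passed. At 12 h 3 of the 6 did not overlap controls, where 20.5% of all probes did not (10.6% for lower). The summed signals of this list were 2347 to 5828 at 6 h and 2064 to 3197 at 12 h, against 3302 to 4590 in controls. Among 4 testable stellate cell markers, Lrat was lower at 12 h than in controls by 1.07 log2 units (adjusted p = 0.034). Reln, another of them, stood at 0.43 against control at 6 h (adjusted p = 0.156) and was lower at 12 h than at 6 h by 0.62 (adjusted p = 0.0393). The summed stellate signal was 9339 to 11600 at 6 h and 7791 to 8979 at 12 h, against 10180 to 11460 in controls. In the endothelial, cholangiocyte, lymphocyte and pancreas lists, 6, 4, 1 and 3 markers could be tested and 0 passed. The part of these cell types in the results below was not tested, and fewer cells of a type cannot be told apart from less RNA per cell. On the first principal component (32.8% of the variance) the controls lay at -31.2 to -27.3 and the 12 h arrays at 10.8 to 21.6. The 6 h arrays were split, with 6 h 1 and 6 h 3 at 26.3 and 28.8 and with 6 h 2 and 6 h 4 at -14.9 and -23.5, nearer the controls. Arrays shared 5 chips: chip 1 held 6 h 4, 12 h 4 and control 1, chip 2 held 6 h 3, 12 h 2 and control 2, chip 3 held 6 h 1, 6 h 2 and control 3, and 12 h 1 and 12 h 3 were on chips of their own in this series.

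Few probes of the 7 genes passed the test after 5'-AMP. Of the 11 member probes that could be tested, 0 passed when the 6 h group was set against control, 1 passed for 12 h against control (Fdps probe 2, lower) and 0 passed for 12 h against 6 h, by limma with p-values adjusted over 16978 probes. An unadjusted p under 0.05 was found for 2 member probes at 6 h, 1 at 12 h and 2 in the comparison of 12 h with 6 h, where 15.9%, 17.6% and 14.5% of all probes had one. In the same fits 0.807%, 2.69% and 0.872% of all probes tested passed, and 1.05% passed as lower at 12 h. Groups did not overlap for 0 of the 11 at 6 h, against 13.3% of all probes. They did not overlap for 1 of the 11 at 12 h, against 20.5% (10.6% for lower), and for 1 of the 11 in 12 h against 6 h, where the share was 9.15% (5.65% for lower). Each of these was Fdps probe 2. The median log2 fold change over the 11 probes was 0.01 at 6 h, -0.34 at 12 h and 0.03 for 12 h over 6 h, and over all probes it was -0.01, -0.02 and 0.00. The other 3 member probes (Sqle probe 3, Lss probe 2 and Insig1 probe 4) were detected on 0 of 11 arrays and were not tested.

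**Figure D1:**
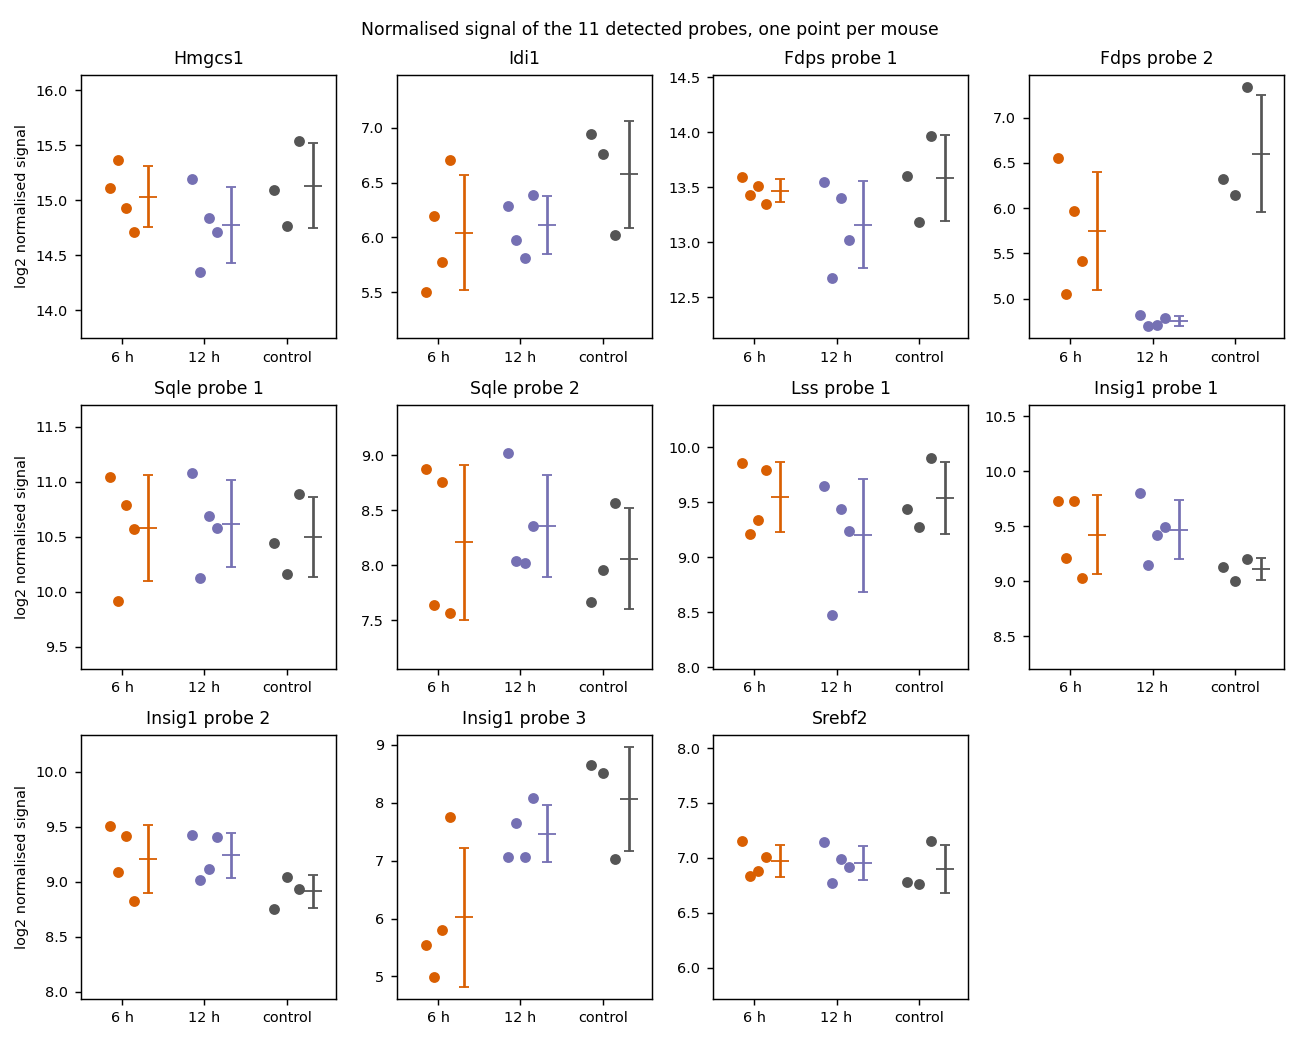
Normalised log2 signal (y axis of each panel) of the 11 member probes detected on at least 3 arrays, with 1 point for each mouse killed 6 h or 12 h after 5'-AMP and each vehicle control; the bar beside the points is the mean with its SD. Fdps probe 2 is the only panel in which the 12 h points (4.70 to 4.82) lie wholly below the control points (6.14 to 7.34), and axes span at least 2.4 log2 units.

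The first steps of the pathway are represented by Hmgcs1, the cytosolic HMG-CoA synthase that joins acetyl-CoA and acetoacetyl-CoA into HMG-CoA. Its probe was among the brightest on the array. The signal, on the scanner's linear scale, was 35512, 40801, 28421 and 33525 on the 6 h arrays, 34767, 19436, 24995 and 28017 on the 12 h arrays, and 37695, 30687 and 44682 on the control arrays. These values placed it between rank 2 and rank 129 among all probes of an array, and at 38.4% to 97.3% of the brightest signal of its array. The groups overlapped, with the highest value in a control and the lowest in 12 h 2. After normalisation Hmgcs1 averaged 15.03 ± 0.28 log2 units at 6 h (SD, n = 4) and 14.77 ± 0.35 at 12 h (n = 4), against 15.13 ± 0.39 in controls (n = 3). The fold was 0.933 at 6 h (95% interval 0.661 to 1.32; limma adjusted p = 0.876) and 0.780 at 12 h (0.553 to 1.10; adjusted p = 0.442). A signal this near the top of its array's range leaves less room above it than for the other members, and its part in these values was not tested.

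Idi1, the isopentenyl diphosphate isomerase that supplies the allylic unit for chain building, lay close to the background. Its signal was 114, 168, 128 and 210 on the 6 h arrays, 135, 135, 109 and 160 on the 12 h arrays, and 199.8, 195 and 118 on the control arrays. It was detected on all 11 arrays, with detection p-values up to 0.0331. In signal 2 of the 3 controls were high and 1 was low, and 6 h 4 was above every control. The normalised level was 6.05 ± 0.52 at 6 h and 6.11 ± 0.27 at 12 h, against 6.57 ± 0.49 in controls (SD, n = 4, 4 and 3). The log2 fold change was -0.53 ± 0.29 at 6 h and -0.46 ± 0.29 at 12 h (± SE; limma adjusted p = 0.397 and 0.43). The 95% interval of the fold ran from 0.450 to 1.07 at 6 h and from 0.473 to 1.12 at 12 h.

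Fdps, the farnesyl diphosphate synthase at the branch point to sterols, dolichols and prenyl groups, had a bright and a dim probe. Probe 1 gave signals of 11521, 15227, 10543 and 13459 on the 6 h arrays, 10313, 5910, 9030 and 8289 on the 12 h arrays, and 12551, 10375 and 13564 on the control arrays. All 4 unnormalised signals at 12 h lay below the lowest control. Such signals carry the brightness of whole arrays, and after normalisation the groups overlapped. The normalised level of probe 1 was 13.47 ± 0.10 at 6 h and 13.16 ± 0.39 at 12 h, against 13.59 ± 0.39 in controls. Its fold was 0.922 at 6 h (95% interval 0.663 to 1.28; limma adjusted p = 0.84) and 0.743 at 12 h (0.534 to 1.03; adjusted p = 0.334).

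Fdps probe 2 was the only member probe called. Its signal was 164, 112, 135 and 128 on the 6 h arrays, 87.0, 92.3, 76.7 and 95.7 on the 12 h arrays, and 157, 153 and 190.1 on the control arrays. It was detected on 3 of 4 arrays at 6 h, on 0 of 4 at 12 h (detection p 0.253 to 0.409) and on 3 of 3 in controls. The normalised level was 5.75 ± 0.65 at 6 h, 4.75 ± 0.06 at 12 h and 6.60 ± 0.65 in controls, and every 12 h array was below every control and every 6 h array. The 12 h level is only a bound, because no 12 h array showed the probe above background. Set against the lowest detected signal of each 12 h array, the 12 h group was at least 2.34-fold lower than controls. The same calculation gave 1.29-fold against the 6 h group. That value is not a strict bound, because 6 h 2 was itself undetected and entered with its measured value. Neither value was itself tested. The limma fit used the measured values, which include the undetected 12 h arrays. Its difference was -1.85 log2 units against controls (adjusted p = 0.00915) and -0.99 against the 6 h group (adjusted p = 0.161). The probe passed the detection filter only through 6 h and control arrays. Its small 12 h SD (0.06) is that of values at background, and this enters the spread behind these p-values. How far the filter and the background favoured the call was not tested. The 6 h group differed from controls by -0.86 ± 0.33 log2 units (adjusted p = 0.243). With chip as a block the 12 h call was lost (-1.69, adjusted p = 0.192), while within chip 1 and within chip 2 the differences were -1.54 and -1.44 log2 units on 1 array a group. Probe 1 of the same gene was not called, and the 2 probes correlated at r = 0.68 over the 11 arrays, a description only, since the arrays share groups and chips.

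**Figure D2:**
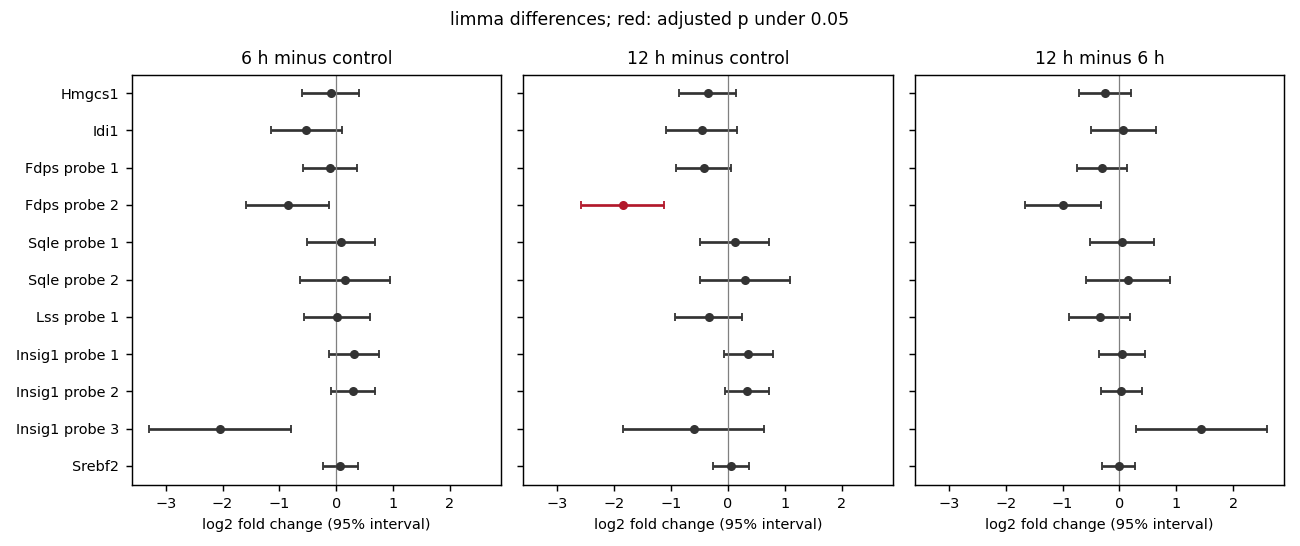
Log2 fold change of each member probe (points) with its 95% interval (lines) from the limma fit, for 6 h minus control, 12 h minus control and 12 h minus 6 h; red marks an adjusted p under 0.05 and the vertical line marks no difference. Only Fdps probe 2 at 12 h is red (-1.85), and Insig1 probe 3 has the widest intervals.

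Sqle, squalene epoxidase, and Lss, lanosterol synthase, make the first sterol of the pathway from squalene. Sqle probe 1 gave signals of 2046, 1467, 1673 and 2054 on the 6 h arrays, 1908, 1055, 1389 and 1581 on the 12 h arrays, and 1486, 1330.0 and 1574 on the control arrays. Sqle probe 2 gave 528, 346, 483 and 319 on the 6 h arrays, 503, 310.2, 273 and 398 on the 12 h arrays, and 281, 347 and 358 on the control arrays. For each Sqle probe the groups overlapped, and the mice of the same group differed more than the group means did. The fold of probe 1 was 1.06 at 6 h (95% interval 0.696 to 1.61; limma adjusted p = 0.92) and 1.09 at 12 h (0.715 to 1.66; adjusted p = 0.872). Probe 2 had a fold of 1.11 at 6 h (0.640 to 1.91; adjusted p = 0.887) and 1.23 at 12 h (0.711 to 2.12; adjusted p = 0.725). Sqle probe 3 ranged from 74.6 to 92.6 at 6 h, from 69.4 to 91.8 at 12 h and from 80.1 to 86.7 in controls, with detection p-values of 0.307 to 0.812, and was not above background on any array.

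Lss probe 1 gave signals of 942, 918, 688 and 1217 on the 6 h arrays, 739.6, 390.1, 627 and 668 on the 12 h arrays, and 778, 752 and 825 on the control arrays. The unnormalised 12 h signals all lay below the lowest control, with the brightness of whole arrays still in them. After normalisation the groups overlapped, at 9.55 ± 0.32 log2 units at 6 h and 9.20 ± 0.51 at 12 h, against 9.54 ± 0.32 in controls. The log2 fold change was 0.01 ± 0.27 at 6 h (limma adjusted p = 0.993) and -0.34 ± 0.27 at 12 h (adjusted p = 0.546). As for Hmgcs1 and Fdps probe 1, 12 h 2 was the lowest array of all 11. Lss probe 2, with signals of 68.4 to 78.9 at 6 h, 63.1 to 77.4 at 12 h and 68.1 to 70.6 in controls, was not above background on any array.

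Insig1, the sterol sensor that holds Scap and SREBP2 in the endoplasmic reticulum and is itself a SREBP2 target, had probes that did not agree. Probe 1 gave signals of 878, 917, 865 and 742 on the 6 h arrays, 819.7, 578, 622 and 779.8 on the 12 h arrays, and 639, 638 and 523 on the control arrays. Probe 2 gave 769, 847, 716 and 658 on the 6 h arrays, 642, 533, 515 and 739.8 on the 12 h arrays, and 514, 655 and 447 on the control arrays. On each of these 2 probes the unnormalised 6 h signals all exceeded the highest control. These signals carry the brightness of whole arrays, and after normalisation the groups overlapped and no call was made. The fold of probe 1 was 1.24 at 6 h (95% interval 0.920 to 1.67; limma adjusted p = 0.477) and 1.28 at 12 h (0.949 to 1.73; adjusted p = 0.376). That of probe 2 was 1.23 at 6 h (0.941 to 1.61; adjusted p = 0.444) and 1.26 at 12 h (0.963 to 1.64; adjusted p = 0.356).

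Insig1 probe 3 went the other way and varied most of all member probes. Its signal was 116, 109, 128 and 354 on the 6 h arrays, 180, 256, 171 and 341 on the 12 h arrays, and 482, 476 and 167 on the control arrays. The signals of 3 of the 4 arrays at 6 h were below every 12 h array and every control, and that of 6 h 4 was above every 12 h array and 1 control. Probe 3 was detected on 3 of 4 arrays at 6 h (detection p up to 0.146), 4 of 4 at 12 h and 3 of 3 in controls. The 3 low signals at 6 h (109 to 128) were close to background, which limits the folds given below. The normalised level was 6.02 ± 1.20 at 6 h and 7.46 ± 0.50 at 12 h, against 8.06 ± 0.90 in controls. The log2 fold change of probe 3 was -2.04 ± 0.57 at 6 h, a fold of 0.243 (95% interval 0.103 to 0.575; limma adjusted p = 0.129), and -0.60 ± 0.57 at 12 h (adjusted p = 0.628). For 12 h over 6 h it was 1.44 ± 0.53 (adjusted p = 0.234). Without 6 h 4 the difference was -2.60 at 6 h (adjusted p = 0.00927) and 1.998 for 12 h over 6 h (adjusted p = 0.0442). With all arrays kept, the 6 h difference also passed with array weights (-2.42, adjusted p = 0.0452) and with the replicate number as a block (-2.43, adjusted p = 0.0386). The labels do not state that mice with the same replicate number are pairs. In total it passed in 3 of 21 alternatives at 6 h and in 1 of 21 for 12 h over 6 h. The chips moved with this probe too, since all 3 arrays of chip 1 were high (354, 341 and 482) and all 3 arrays of chip 3 were low (116, 109 and 167). Within chips 1, 2 and 3 the 6 h minus control difference was -0.89, -2.72 and -1.76 log2 units, and with chip as a block it was -1.79 (adjusted p = 0.0706). Probe 4 ranged from 72.3 to 85.2 at 6 h, 65.3 to 85.5 at 12 h and 83.1 to 84.5 in controls, and was not above background on any array.

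**Figure D3:**
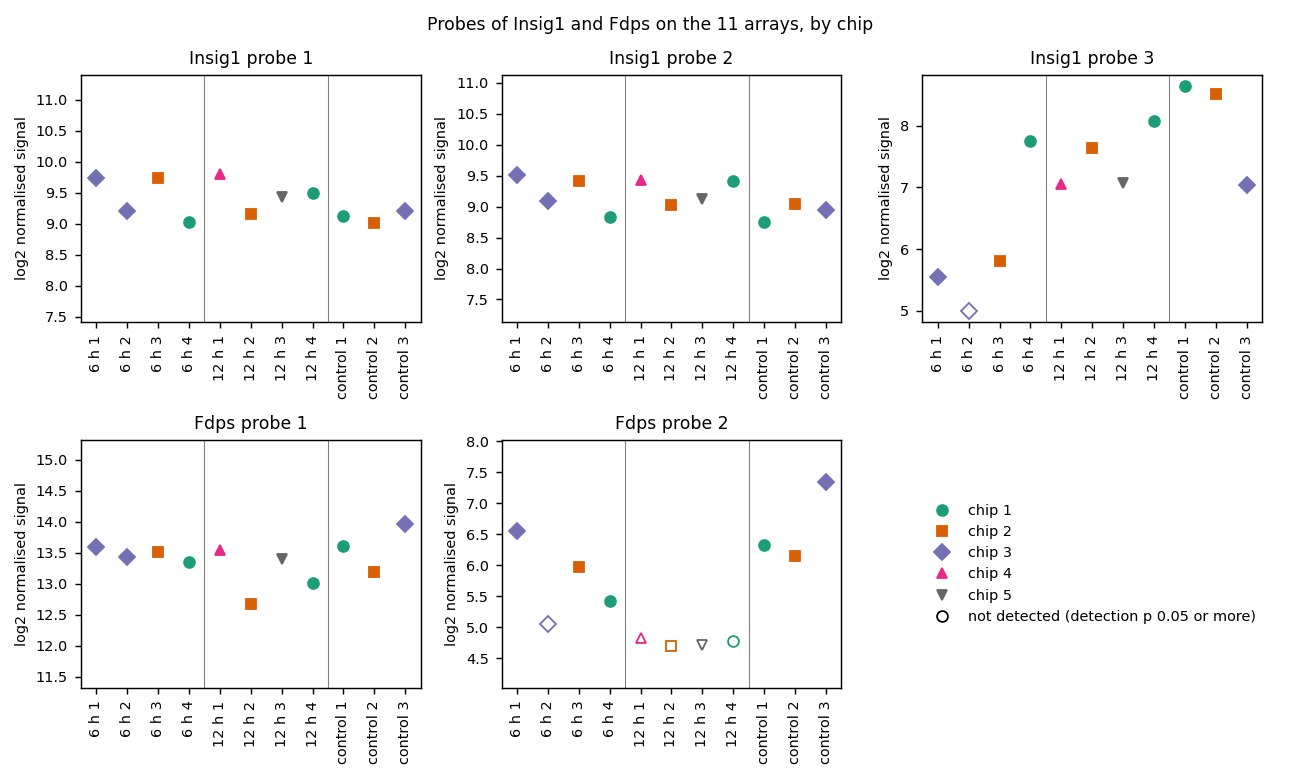
Normalised log2 signal of 3 Insig1 probes and 2 Fdps probes on each array (x axis: the 6 h, 12 h and control arrays by replicate number), with colour and shape for the 5 chips and open symbols where the probe was not detected. Insig1 probe 3 is highest in control 1, control 2, 12 h 4 and 6 h 4, while probes 1 and 2 are highest in 12 h 1, 6 h 1 and 6 h 3, and Fdps probe 2 is open on every 12 h array while probe 1 is not.

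Srebf2, which encodes the SREBP2 precursor itself, was low and had the narrowest range of the members. The signal was 212, 225, 188 and 244 on the 6 h arrays, 187, 176, 165 and 197 on the 12 h arrays, and 187, 195 and 175 on the control arrays. All groups overlapped. The normalised level was 6.97 ± 0.14 at 6 h and 6.96 ± 0.15 at 12 h, against 6.90 ± 0.22 in controls (SD, n = 4, 4 and 3). The fold was 1.05 at 6 h (95% interval 0.846 to 1.30; limma adjusted p = 0.857) and 1.04 at 12 h (0.838 to 1.29; adjusted p = 0.887), the narrowest intervals among the members. RNA level does not report how much SREBP2 protein was cut, which arrays of RNA do not measure.

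The 12 h group was also set against the 6 h group, to compare the later with the earlier time directly. Fdps probe 2 and Insig1 probe 3, described above, had the only unadjusted p-values under 0.05 among the 11. The other 9 probes had log2 fold changes of -0.35 (Lss probe 1) to 0.15 (Sqle probe 2), with adjusted p-values of 0.518 to 0.976. Between those ends lay Hmgcs1 at -0.26 ± 0.21 and Fdps probe 1 at -0.31 ± 0.20 (± SE), which were lower in the mean at 12 h but overlapped.

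Most of the spread of the members lay between mice of the same group. The groups accounted for 1.76% of the variance of Sqle probe 1, 5.61% of Sqle probe 2, 3.79% of Srebf2, 18.8% of Lss probe 1, 21.7% of Hmgcs1, 26.4% of Idi1 and 30.7% of Fdps probe 1. For Insig1 probes 1 and 2 the share was 28.4% and 32.2%. The median over all probes tested was 28.3%, and only Fdps probe 2 (73.6%) and Insig1 probe 3 (54.4%) were far above it. Over the 11 arrays the members covered 0.39 (Srebf2) to 3.65 (Insig1 probe 3) log2 units from lowest to highest, against a median of 0.82 over all probes.

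Mice differed together in several of the members. Each gene was standardised over the 11 arrays by its brightest probe and the 7 were averaged. This mean was highest in 12 h 1 (0.86), control 3 (0.83) and 6 h 1 (0.63), and lowest in 12 h 2 (-1.40) and control 2 (-0.54), so high and low mice occurred in more than 1 group. Hmgcs1 and Fdps probe 1 had r = 0.89, Sqle probe 1 and Srebf2 0.85, and Fdps probe 1 and Lss probe 1 0.84. The correlation of each gene with the mean of the other 6 was 0.87 for Lss, 0.81 for Fdps, 0.74 for Srebf2, 0.73 for Sqle, 0.63 for Hmgcs1 and 0.31 for Insig1. Idi1 was the exception at -0.36, and its highest r with a member probe was with Insig1 probe 3 (0.73). These correlations are descriptions over 11 arrays that share groups, chips and normalisation.

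Among the other named genes reported here, Mvd, the mevalonate diphosphate decarboxylase that acts just before Idi1, was most like the members' mean (r = 0.95 over 11 arrays). Rdh11 followed at 0.91, Rapgef1 at 0.88, Tinagl (now Tinagl1) at 0.88, Txndc1 (now Tmx1) at 0.87 and Mx2 at 0.86. Sc5d, the lathosterol desaturase, also stood at 0.86. None of these 7 passed the test at 6 h or 12 h. Mvd differed from controls by -0.17 log2 units at 6 h and -0.58 at 12 h (limma adjusted p = 0.895 and 0.553), and Sc5d by -0.15 and -0.40 (adjusted p = 0.765 and 0.324).

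Other enzymes of cholesterol synthesis likewise held no call by their brightest probe. Of 17 listed, 15 could be tested, and 0 passed at 6 h, at 12 h or between the times by limma, with 0, 3 and 2 at an unadjusted p under 0.05 (15.9%, 17.6% and 14.5% of all probes). Their median log2 fold change was -0.04 at 6 h and -0.16 at 12 h. At 12 h 2 of the 15 did not overlap controls, against 20.5% of all probes. These were Fdft1, which was lower, and Nsdhl, which was higher (0.70 ± 0.35, limma adjusted p = 0.321). The smallest p against control belonged to Fdft1, the squalene synthase that acts between Fdps and Sqle. It stood at 5.52, 5.48, 5.45 and 5.37 log2 units at 6 h and at 5.28, 5.15, 5.25 and 5.01 at 12 h, against 5.52, 5.29 and 6.28 in controls. All 12 h values lay just below the lowest control, and a single control stood apart above the rest. The probe was detected on 4 of 4 arrays at 6 h, 0 of 4 at 12 h and 2 of 3 in controls. The measured difference was -0.24 ± 0.19 at 6 h (limma adjusted p = 0.592) and -0.52 ± 0.19 at 12 h (adjusted p = 0.187), and neither passed. Without control 3 the difference was 0.055 at 6 h and -0.24 at 12 h (adjusted p = 0.892 and 0.511). Fdft1 was not well above background at 12 h, so its level there is only a bound. Between the times the smallest p was that of Msmo1, a sterol C4-methyl oxidase listed under its older name Sc4mol, at -0.60 ± 0.22 for 12 h over 6 h (adjusted p = 0.239).

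**Figure D4:**
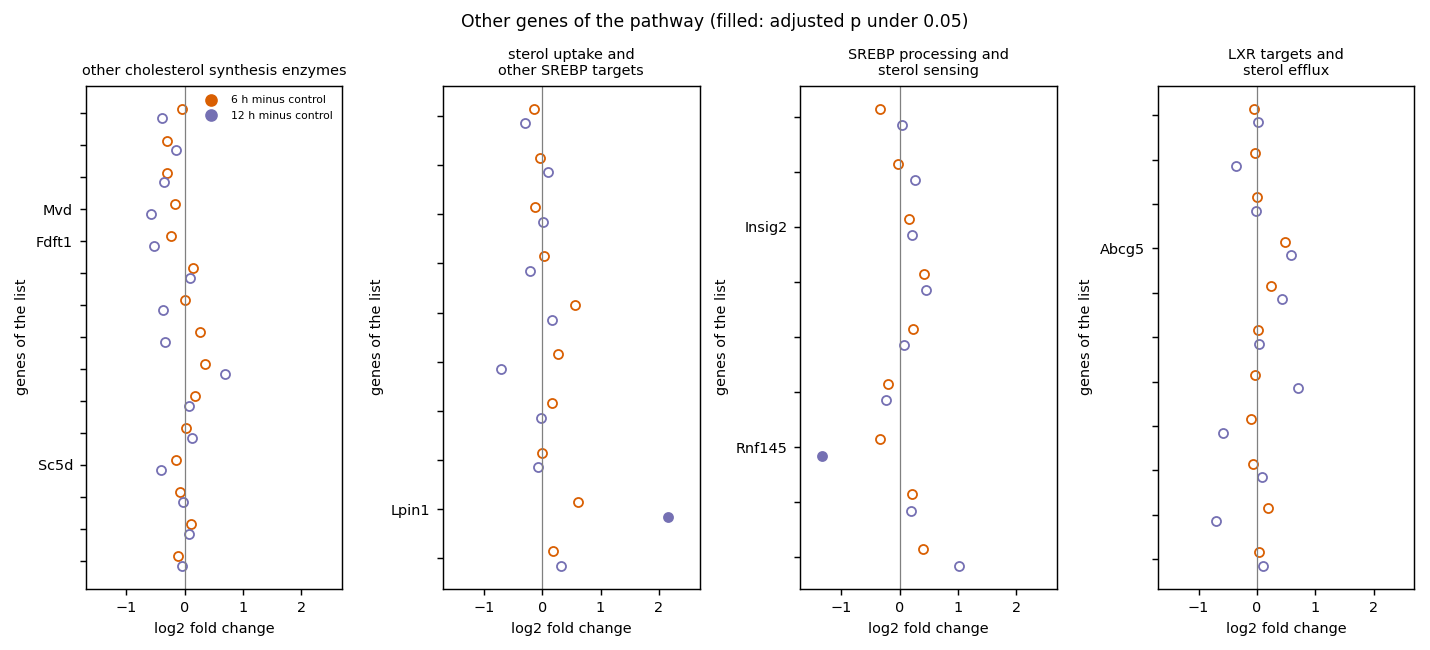
Log2 fold change of each testable gene of 4 lists, by its brightest probe, at 6 h minus control and 12 h minus control; filled points have an adjusted p under 0.05, and only genes with values in the text are labelled. Lpin1 and Rnf145 at 12 h are the filled points, and no enzyme of cholesterol synthesis in the first panel is filled.

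Among targets of SREBP proteins outside the pathway, 1 gene passed at 12 h. Of 12 listed genes 10 could be tested. By limma 0 passed at 6 h, and Lpin1 alone rose at 12 h and was higher at 12 h than at 6 h. In these 3 comparisons 0.807%, 2.69% and 0.872% of all probes passed. An unadjusted p under 0.05 was found for 2, 2 and 3 of the 10 (15.9%, 17.6% and 14.5% of all probes). The list's median log2 fold change at 12 h was 0.00. Lpin1 is a phosphatidate phosphatase, a SREBP target in cultured cells and also known to respond to fasting. It rose at 12 h on each of the 2 probes that could be tested, out of 4 on the array. Probe 1 stood at 8.63, 7.65, 7.76 and 6.95 at 6 h and at 9.33, 9.31, 9.08 and 9.40 at 12 h, against 7.15, 7.17 and 7.07 in controls. The difference at 12 h was 2.15 ± 0.28 on probe 1 and 1.95 ± 0.20 on probe 2 (limma adjusted p = 0.000983 and 0.000108), and it passed with chip as a block (2.37 and 2.09; adjusted p = 0.0254 and 0.00621). For 12 h over 6 h the differences were 1.53 and 1.27 (adjusted p = 0.0176 and 0.00831), which did not pass with chip as a block (1.83 and 1.44; adjusted p = 0.211 and 0.147). The probe 1 call also needed single arrays, and was lost without 6 h 2, 12 h 1, 12 h 2 or 12 h 4 (adjusted p = 0.0641, 0.0638, 0.0547 and 0.0721). It was lost too with the authors' normalised values, with no filter on detection and with only the compared groups (adjusted p = 0.0588, 0.0506 and 0.0512).

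Genes that process and sense SREBP and sterols held a single call. Of 12 listed, 9 could be tested. An unadjusted p under 0.05 was found for 1 at 6 h, 2 at 12 h and 2 for 12 h against 6 h (15.9%, 17.6% and 14.5% of all probes). After adjustment 1 passed, at 12 h and for 12 h against 6 h, where 2.69% and 0.872% of all probes passed. This was Rnf145, an E3 ligase of the sterol response listed under an older clone name (3732413I11Rik), which fell at 12 h. It stood at 7.90, 7.79, 7.51 and 7.81 log2 units at 6 h and at 6.82, 6.66, 7.12 and 6.44 at 12 h, against 8.23, 7.92 and 8.13 in controls. The difference was -0.34 ± 0.17 at 6 h (limma adjusted p = 0.343), -1.33 ± 0.17 at 12 h (adjusted p = 0.000668; 0.00697 with chip as a block) and -0.99 ± 0.15 for 12 h against 6 h (adjusted p = 0.011; -1.13 and 0.114 with chip as a block). Insig2, the liver's other Insig gene, differed by 0.17 ± 0.14 at 6 h and 0.22 ± 0.14 at 12 h (adjusted p = 0.589 and 0.43). Of 13 genes on a mixed list of LXR targets and sterol efflux, 11 could be tested and 0 passed in any of the 3 comparisons. At an unadjusted p under 0.05 stood 1, 3 and 2 of them (15.9%, 17.6% and 14.5% of all probes). The smallest p against control was that of Abcg5, a subunit of the biliary sterol exporter, at 0.49 ± 0.18 at 6 h and 0.58 ± 0.18 at 12 h (adjusted p = 0.229 and 0.128). Between the times it was that of Cyp7a1, the rate-limiting enzyme of bile acid synthesis, at -0.89 ± 0.27 for 12 h over 6 h (adjusted p = 0.152). Its 2 groups did not overlap, as for 2 of the 11 genes in this comparison, where 9.15% of all probes did not (5.65% for lower). Against control, 0 of the 11 did not overlap at 6 h (13.3% of all probes) and 4 of the 11 at 12 h (20.5%).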

How the data were processed

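The authors deposited a non-normalised table with a mean bead intensity for each probe, exported from GenomeStudio per the submitters' processing notes, and a detection p-value for each probe and array. They also deposited a normalised table of intensity values, used only as an alternative. All later steps were computed here. Background was corrected by normexp with detection p-values (offset 16), arrays were quantile-normalised, and log2 values were taken, using limma 3.58.1 and statmod 1.5.0 under R 4.3.3. The filter kept probes with detection p under 0.05 on at least 3 of 11 arrays (16978).

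A limma model with a mean for each of the 3 groups (residual degrees of freedom 8, prior 4.25) gave two-sided p-values, adjusted by Benjamini and Hochberg over all kept probes, with a threshold of 0.05. Each mouse is 1 array, and precision is limited by there being 3 or 4 arrays a group. The fit was first tested on simulated data. Chips were read from the column names. Replicate numbers were not treated as pairs in the main fit. Same-numbered arrays' deviations from their group means correlated at -0.21 to 0.45. The highest value was that of 6 h 4 and 12 h 4, which share chip 1.

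Every member probe is given. Of each of the 4 pathway lists, genes that passed by their brightest probe are named, or the one with the smallest p against control, plus the genes most like the members. Some listed genes are not reported here. Insig2, Msmo1, Nsdhl, Cyp7a1 and the markers S100a8, Lrat and Reln were named after their values were seen. Members and lists were chosen with earlier results of these data known. Tm7sf2 and Acss2 matched no probe.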

Additional observations from a re-analysis of the deposited data

Results flagged for a closer look

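In 28 sets of 4 arrays (each member probe at 6 h and at 12 h), the highest or lowest array was checked for a gap to its neighbours by Dixon's test at the 95% level, which chance passes in about 1 of 20 sets. A single one passed: Lss probe 2, where 12 h 1 was lowest at 4.41 log2 units, against 4.46 for the nearest array (Dixon ratio 0.83). This probe was not above background on any array.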

How the results depend on the processing

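Over 738 alternative values for the members, 689 kept their direction and their side of the threshold. At 6 h against control the member count was 1 in place of 0 with array weights, with the replicate block and without 6 h replicate 4 (Insig1 probe 3 each time: -2.42, -2.43 and -2.60), so leaving out arrays gave 0 to 1. At 12 h against control it was 0 in place of 1 with the stricter filter (detection p under 0.01 on all 11 arrays) and with 1 probe per gene, which drop Fdps probe 2, and with chip as a block. It stayed at 1 without any single array. At 12 h against 6 h it was 1 in place of 0 with the authors' normalised values (Fdps probe 2, not above background at 12 h) and without 6 h replicate 4 (Insig1 probe 3), so 0 to 1 without single arrays. The replicate block changed no other call of a member.

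Small differences changed sign. Lss probe 1 at 6 h was -0.014 with median centring, -0.037 with the replicate block, -0.024 with chip as a block and -0.0042 with chip as a random block. Hmgcs1 at 6 h was 0.0036 with array weights. With chip as a block, Sqle probe 1 was -0.11 at 12 h and -0.17 for 12 h against 6 h, and Idi1 and Insig1 probe 1 were -0.15 and -0.048 for 12 h against 6 h. Leaving out single arrays gave ranges that span 0. At 6 h these were -0.32 to 0.072 for Fdps probe 1, -0.28 to 0.10 for Hmgcs1, -0.12 to 0.19 for Lss probe 1, -0.086 to 0.30 for Sqle probe 1, -0.077 to 0.40 for Sqle probe 2 and -0.44 to 0.055 for Fdft1. At 12 h they were -0.046 to 0.32 for Sqle probe 1 and -0.012 to 0.18 for Srebf2. For 12 h against 6 h they were -0.11 to 0.29 for Idi1, -0.088 to 0.15 for Insig1 probe 1, -0.094 to 0.13 for Insig1 probe 2, -0.18 to 0.20 for Sqle probe 1, -0.068 to 0.37 for Sqle probe 2 and -0.076 to 0.049 for Srebf2. The cause of these changes was not tested.

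The number of all probes called was 137 at 6 h, and 326 with no background correction, 62 with only the compared groups, 250 with a trended and robust variance, 67 with chip as a block, 231 with chip as a random block and 70 to 232 without single arrays. At 12 h it was 456, and 301 with the stricter filter, 896 with only the compared groups, 942 with array weights, 159 with chip as a block and 264 to 564 without single arrays. For 12 h against 6 h it was 148, and 287 with no background correction, 75 with the authors' values, 230 with a trended and robust variance, 7 with chip as a block and 57 to 169 without single arrays. Of the 6 h calls 67.2% were higher, and 81.1% with the authors' values, 77.6% with the replicate block, 86.6% with chip as a block, 90.3% with only the compared groups and 60.3% to 90% without single arrays. At 12 h 60.7% were higher, and 77.4% with chip as a block. For 12 h against 6 h 54.1% were higher, and 40.6% with the stricter filter, 66.3% with the replicate block, 85.7% with chip as a block (7 calls) and 49.6% to 71.0% without single arrays. Alternatives for the list genes were chosen after seeing the data. Signal near background limits Idi1, Fdps probe 2, Fdft1, Insig1 probe 3 at 6 h and the 3 undetected probes.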
